A study of Mus musculus with 12 samples.

Results

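Members of the Slco family, which encodes the organic anion transporting polypeptides, were followed by array signal in the livers of female mice given testosterone or oil. The 5 members were taken by gene symbol: Slco1a1, Slco1a4, Slco1b2, Slco2a1 and Slco2b1. Of these, 4 had a probe set whose platform symbol named that gene alone, with 11 probe sets between them, out of 12393 genes and 20380 single-symbol probe sets on the array. A filter on low signals kept what exceeded its own array's median in 3 or more of 12 arrays. It left all 4 genes and 8 of the 11 probe sets, among 7217 genes and 12108 probe sets tested. The 12108 came from all 22626 non-control probe sets, including those with several symbols or none. Slco2b1, an uptake carrier of steroid sulphates, was listed with no probe set, so its signal was not analysed here.

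The arrays held liver RNA of 12 female C57BL/6 mice, 1 array for each mouse and 3 mice in each of 4 groups. Testosterone mice received 0.9 mg of the hormone in 100 µl of sesame oil under the skin, 2 injections a week for 3 weeks, and vehicle mice the same volume of oil alone. In each treatment 3 mice were taken at the end of the injections and 3 after hormone or oil had been withdrawn. The sample labels give the withdrawal as 12 weeks and the series description as 3 weeks, so its length is uncertain. The labels name no removal of the ovaries in any group, and the age of the mice is not given in the sources used here. The groups at the end and after withdrawal differ in age, in time since the last injection and in anything that changed between the collections, which cannot be told apart. All values are MAS5 signals, a linear scale of probe brightness that the authors had scaled to the same trimmed mean on every array.

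Organic anion transporting polypeptides sit mostly in the blood-facing (sinusoidal) membrane of hepatocytes and take up bile acids, conjugated steroids, thyroid hormones and many drugs without sodium. In mouse liver Slco1a1 is known as a male-predominant transcript and Slco1a4 as a female-predominant one, and the pair lies within the same cluster of Slco genes. Slco1b2 is the mouse counterpart of the human liver carriers of the 1B class, and Slco2a1 carries prostaglandins and is known from endothelial cells.

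In the RefSeq annotation the order of genes along chromosome 6 is Slco1c1, Slco1b2, Gm5724, Slco1a4, 2 non-coding genes, Slco1a1, Gm6614, Slco1a6, a pseudogene and Slco1a5. The 250 bases before the annotated start are shown for the 3 members of this cluster, since Slco1a1 and Slco1a4 changed in opposite directions and Slco1b2 lies beside them. They come from the RefSeq promoter windows of build GRCm38.p6, written 5′ to 3′ on the gene's own strand: Slco1a1 at chr6:141946963-141947212 on the minus strand, Slco1a4 at chr6:141856221-141856470 on the minus strand and Slco1b2 at chr6:141629268-141629517 on the plus strand. Capitals mark a match to the palindromic STAT element TTCNNNGAA.
Slco1a1: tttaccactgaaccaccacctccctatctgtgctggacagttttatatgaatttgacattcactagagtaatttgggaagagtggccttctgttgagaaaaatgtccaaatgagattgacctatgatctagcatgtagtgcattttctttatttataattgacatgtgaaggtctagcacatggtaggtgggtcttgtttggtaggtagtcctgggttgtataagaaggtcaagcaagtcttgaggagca
Slco1a4: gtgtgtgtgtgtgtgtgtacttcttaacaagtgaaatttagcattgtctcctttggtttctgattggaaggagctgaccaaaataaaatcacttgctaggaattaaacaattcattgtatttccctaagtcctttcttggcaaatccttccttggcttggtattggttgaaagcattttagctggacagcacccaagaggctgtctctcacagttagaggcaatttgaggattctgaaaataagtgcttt
Slco1b2: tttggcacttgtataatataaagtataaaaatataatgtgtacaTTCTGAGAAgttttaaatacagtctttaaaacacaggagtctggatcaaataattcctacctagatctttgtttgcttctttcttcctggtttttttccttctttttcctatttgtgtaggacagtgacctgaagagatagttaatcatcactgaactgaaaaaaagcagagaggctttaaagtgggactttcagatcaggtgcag
Both strands of each window of 300 bases (250 before the start and 50 after) were searched for 5 motifs: TTCNNNGAA, the full androgen receptor element, its arm TGTTCT (which that element contains), the HNF1 element and the direct repeat of nuclear receptors spaced by 4 bases. TTCNNNGAA was found at positions -206 to -198 of Slco1b2 and in 8.3% of all 32851 windows. TGTTCT (in 19.0% of windows), the full androgen receptor element (0.00913%), the HNF1 element (0.00913%) and the direct repeat (0.0152%) were not found in the windows of Slco1a1, Slco1a4 or Slco1b2. The window of Slco2a1 held none of the 5. Among the windows of Slco2b1, which lies on chromosome 7, TTCNNNGAA was found at positions 13 to 21 of a window and at -133 to -125 of another. The latter window also held TGTTCT at -96 to -91. A match here is a run of letters, not a measured site. The longer strings are rare in all windows and looser forms were not searched, so a miss does not show that a site is absent.

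Hepatocyte markers were bright on every array: the summed signal of 13 hepatocyte marker genes lay between 53080 and 66510, that of 7 kidney genes between 13.2 and 38.2 and that of 8 cholangiocyte genes between 94.0 and 135. The 3′ to 5′ signal ratio of beta-actin, a measure of how much of each transcript the labelling reached, was 2.03 to 2.19 in testosterone mice when treatment ended against 1.44 to 1.64 in their vehicle mice. After withdrawal it was 1.598 to 1.89 in vehicle and 1.47 to 1.82 in testosterone mice. As the treatments did not overlap in this ratio at the end, a fit that includes it cannot tell it from the treatment there. Vehicle mouse 2 at the end of treatment stood apart by 5 genes at least 4-fold above both of its group mates, all of the acute phase or neutrophils (Lcn2, Orm2, S100a8, Saa1 and Saa2), and 6 at least 4-fold below both (Capn1, Clcn5, Cyp3a16, Phgdh, Plekhg5 and Rgs16). Vehicle mouse 1 after withdrawal had the highest summed signal of 14 macrophage markers in its group (4026 against 2189 and 2818). Results that turn on either mouse are given with and without it. Because whole liver was used, fewer cells of a type and less RNA per cell cannot be told apart.

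Slco1a1, the male-predominant uptake carrier of bile acids and steroid conjugates, was higher with testosterone at both times. At the end of treatment its brighter probe set (1420379_at) read 194, 319 and 271 in vehicle mice 1 to 3. The testosterone mice read 1155, 1005 and 1277. The groups did not overlap, and the lowest testosterone mouse lay 3.15 times above the highest vehicle mouse. The means were 261 ± 62.7 and 1146 ± 137 (SD, n = 3 each), a log2 difference of 2.15 ± 0.69 (SE), or 4.45-fold (limma, Benjamini-Hochberg adjusted p = 0.0435).

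After withdrawal the testosterone mice still read 917, 1281 and 1052, a mean of 1083 ± 184, which overlapped the testosterone mice at the end (log2 change -0.09 ± 0.69, adjusted p = 0.957). The vehicle mice of that time read 106, 1.92 and 17.5, so the whole testosterone group lay above them and its lowest mouse was 8.64 times their highest. The log2 difference between treatments was 5.69 ± 0.69 (adjusted p = 9.38e-05), with means 25.9-fold apart. Vehicle mouse 2 lay under the floor of 4.84 to which low signals were raised before log2, so the size of the log2 difference depends on that floor. It was 4.70 ± 0.45 as log2(signal + 16), 5.27 ± 0.53 with a floor at the 40th percentile and 4.64 ± 0.48 without that mouse, called each time.

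The second Slco1a1 probe set, 1449844_at, gave the same order of groups. Vehicle mice at the end read 107, 175 and 135, and testosterone mice 520, 467 and 583. After withdrawal the vehicle mice read 60.1, 5.31 and 3.25 and the testosterone mice 404, 572 and 535. Tested among all probe sets, its treatment difference was 1.94 ± 0.64 at the end (adjusted p = 0.0478) and 5.43 ± 0.64 after withdrawal (adjusted p = 0.000122). Those SEs pool the spread of all 4 groups. With only the 2 later groups in the fit, the 5.43 had a larger SE of 0.75 (adjusted p = 0.0028).

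**Figure D1:**
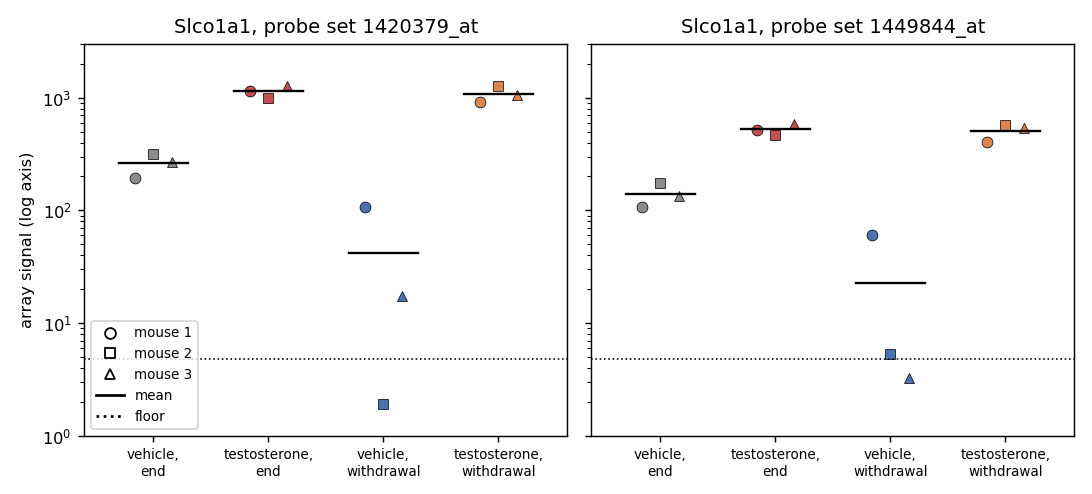
Signal of the 2 Slco1a1 probe sets by mouse on a log axis, in the 4 groups; each point is 1 mouse (shape gives the mouse number within its group), the line is the group mean and the dotted line is the floor of 4.84. The testosterone mice lie above the vehicle mice of the same time in both panels, and the 3 vehicle mice after withdrawal are spread from 1.92 to 106 on 1420379_at.

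The end-of-treatment call for Slco1a1 depended on the spread of vehicle mice outside that comparison. All 4 groups share 1 estimate of spread, and with only the 2 groups compared the same 2.15 had an SE of 0.17 (adjusted p = 4.00e-05), and without vehicle mouse 1 of the withdrawal time an SE of 0.33 (adjusted p = 0.000733). Leaving out any 1 mouse of the comparison gave 1.96 to 2.31 with adjusted p between 0.0658 and 0.123, so the call was lost each time. The second probe set, 1449844_at, lost its call in each of those fits too (1.76 to 2.12, adjusted p between 0.0683 and 0.134). With the beta-actin ratio in the fit the difference was 4.09 ± 1.33 (adjusted p = 0.227), in a fit that called 78 genes in all against 1258. The 3-against-3 design cannot give an exact two-sided permutation p below 0.1, which is the value Slco1a1 reached at both times.

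Vehicle mice themselves had less Slco1a1 signal after withdrawal than at the end of treatment. The 3 earlier mice (194 to 319) lay above the 3 later ones (1.92 to 106), with means 6.25-fold apart and a log2 change of -3.62 ± 0.69 (adjusted p = 0.00309). The second probe set fell by 3.56 on the log2 scale (SE 0.64, adjusted p = 0.00289). Without vehicle mouse 1 of the later time the fall was -4.80 ± 0.37 (adjusted p = 5.34e-06), and without mouse 2 it was -2.57 ± 0.48 (adjusted p = 0.00567). With the beta-actin ratio in the fit it was -2.73 ± 0.85 and not called (adjusted p = 0.0995). Macrophage markers moved in the same comparison: 10 of 14 were lower after withdrawal and 0 higher (median -1.04), where 17.8% of all genes were called, with sums of 4357 to 6827 at the end and 2189 to 4026 later. At the end of treatment 7 of the 14 were lower with testosterone (sums 3230 to 3883), where 17.4% of all genes were called, and Slco1a1 was higher. Their part in these results was not tested. Ordered by level, Slco1a1 was thus highest in both testosterone groups, which did not differ beyond their spread, then in vehicle mice at the end, then in vehicle mice after withdrawal.

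The test of whether the treatment difference itself differed between the times rested on those same later vehicle mice. It gave 3.54 ± 0.98 on the log2 scale for 1420379_at. That missed the threshold in the fit over genes (adjusted p = 0.0659) and in that over probe sets (adjusted p = 0.0532). For 1449844_at it gave 3.49 ± 0.91, which passed among all probe sets (adjusted p = 0.0441). Without vehicle mouse 1 after withdrawal both passed, at 4.71 ± 0.50 (adjusted p = 0.000414) and 4.68 ± 0.26 (adjusted p = 1.03e-06). Neither passed without mouse 2 (2.48 and 2.93, adjusted p = 0.0932 and 0.104) or without mouse 3 (3.41 and 2.86, adjusted p = 0.158 and 0.118).

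The spread of Slco1a1 among the later vehicle mice was among the widest on the array. Their SD was 2.24 on the log2 scale, against 0.36 in vehicle mice at the end, 0.17 and 0.24 in the 2 testosterone groups and a median of 0.14 to 0.17 over all genes tested. It ranked second of 7217 genes in that group, after Cyp3a16 (SD 2.38; signals 3.89, 114 and 53.6) and before Clcn5 (1.91). Signals in the group ran from under the floor to 106, and this SD takes the lowest mouse at the floor. In mouse 1 of that group Slco1a1 was the only gene at least 4-fold above both other mice, while Cyp3a16 and Nacc1 were at least 4-fold below both.

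The second probe set placed mouse 1 highest as well, but reversed mice 2 and 3. The signal of 1449844_at was 44.0% to 56.6% of that of 1420379_at on 10 arrays, 277% in vehicle mouse 2 and 18.6% in vehicle mouse 3 after withdrawal. Mice 2 and 3 each lay under the floor on 1 of the 2 probe sets, so their order is not measured, whereas mouse 1 (106 and 60.1) stood above both on either probe set. That mouse also had the lowest beta-actin ratio of its group (1.598 against 1.83 and 1.89) and the highest macrophage sum, whose part in its Slco1a1 signal was not tested.

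Genes with a sex-typical pattern were read in the same mice. Of 4 male-typical genes, Cyp4a12a read 1.32, 1.04 and 0.289 in the later vehicle mice 1 to 3, and Hsd3b5 read 0.889, 0.411 and 0.600. Every one of these lay under the floor, so their order is not measured. Elovl3 was lowest in mouse 1 (24.4, 32.6 and 36.1), and Cyp2d9 highest there (113, 58.0 and 86.1). Female-typical genes in the same mice were close together: Sult2a2 read 2639, 3402 and 3134, Cyp2b9 1458, 1520 and 1363, Cyp17a1 474, 714 and 537, and Cux2 34.7, 28.0 and 34.9. Of the 6 genes above the floor, none had mouse 1 at 4-fold or more above both others. This follows from the count over all tested genes given above and is not a separate result.

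In the earlier vehicle mice, where Slco1a1 read 194, 319 and 271, mouse 2 was highest for Slco1a1 and also for Hsd3b5 (2.52, 43.3 and 18.9) and Cyp2d9 (128, 244 and 82.7), but lowest for Elovl3 (42.3, 27.1 and 28.9). Cyp4a12a lay under the floor in all 3 (0.928, 1.81 and 0.402). Mouse 2 is the one with the acute-phase signal described above.

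The 5 genes nearest to Slco1a1 in pattern, by the root mean square difference of centred log2 signal over the 12 arrays, were C6 (1.27), Cyp2d9 (1.32), Nat8f5 (1.49), Ugt2b38 (1.53) and Susd4 (1.54), against a median of 2.55 over all genes. C6, a complement component, read 60.4 ± 26.9 in the later vehicle mice against 520 ± 176 in the testosterone mice of that time. Cyp2d9, a male-typical cytochrome P450, read 85.8 ± 27.7 against 1995 ± 709. In the later vehicle mice C6 was highest in mouse 1 (90.4, 38.6 and 52.2), and so were Cyp2d9, Nat8f5 and Susd4. For Susd4 mouse 3 read nearly as high (13.74, 7.71 and 13.42). Ugt2b38 was highest in mouse 2 (5.92, 11.6 and 3.16), with mouse 3 under the floor of 4.84. All 5 were chosen for their likeness to Slco1a1 over these same arrays, so the shared order is not a separate result. Even the nearest gene thus lay 1.27 from Slco1a1, whose own SD over the 12 arrays was 2.63 on the log2 scale.

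**Figure D2:**
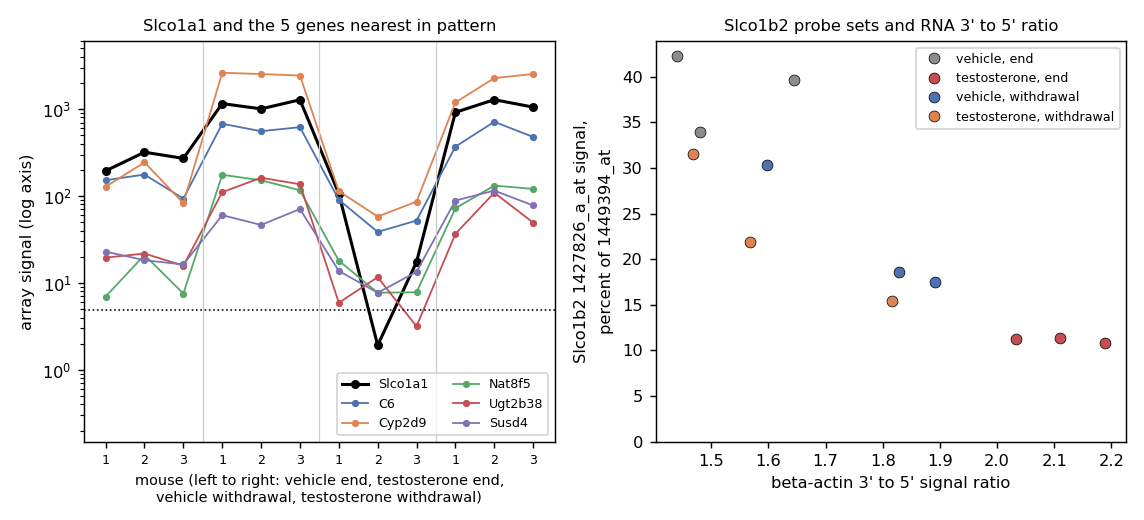
Left, signal on a log axis of Slco1a1 and the 5 genes nearest to it in pattern, by mouse in the 4 groups, with the floor dotted. All 6 lie higher in testosterone groups, and Slco1a1 spans 1.92 to 106 among vehicle mice after withdrawal. Right, the Slco1b2 probe set 1427826_a_at as percent of 1449394_at against the beta-actin 3′ to 5′ ratio of the same array, 1 point for each of 12 mice. The testosterone mice of the earlier time (10.8% to 11.4%) sit at the highest ratios, 2.03 to 2.19.

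Slco1a4, the female-predominant uptake carrier that is also known as a target of the xenobiotic receptor PXR, was lower with testosterone at both times. Its single probe set (1420405_at) read 931, 912 and 907 in the vehicle mice when treatment ended. Testosterone mice read 357, 373 and 581. All 3 lay under the vehicle mice, whose lowest value was 1.56 times the highest testosterone value. The means were 917 ± 12.6 and 437 ± 125, and the log2 change was -1.10 ± 0.16 (adjusted p = 0.000401), or 2.15-fold lower.

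After withdrawal Slco1a4 read 775, 1017 and 798 in vehicle and 613, 448 and 536 in testosterone mice. The groups again did not overlap, but by a smaller margin (1.27 times between the nearest mice). The log2 change was -0.70 ± 0.16 (adjusted p = 0.0189), or 1.62-fold lower. That call was lost without vehicle mouse 2 (-0.58, adjusted p = 0.105), without testosterone mouse 2 (-0.58, adjusted p = 0.1002) or without testosterone mouse 3 (-0.71, adjusted p = 0.0588), and with the beta-actin ratio in the fit (-0.57, adjusted p = 0.1004). At the end of treatment the call held with that ratio (-1.55, adjusted p = 0.0331). The ratio did not overlap between the treatments there, so that fit cannot tell it from the treatment.

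The treatment difference of Slco1a4 did not pass the test of differing between times (0.41 ± 0.23, adjusted p = 0.324). Vehicle mice at the 2 times overlapped (-0.10 ± 0.16, adjusted p = 0.718), and so did the testosterone mice (0.31 ± 0.16, adjusted p = 0.258). Its spread was narrow among vehicle mice at the end (log2 SD 0.02, smaller than in all but 1.12% of genes) and wide among the testosterone mice of that time (0.39), where mouse 3 stood above the other two.

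In pattern the 5 genes nearest to Slco1a4 were Gstt3 (0.14), Fhit (0.18), Acss2 (0.20), Papss2 (0.20) and Aldh1b1 (0.20), against a median of 0.56 over all genes and an SD of Slco1a4 itself of 0.53. Gstt3, a glutathione transferase, read 437 ± 14.9 and 213 ± 54.0 in vehicle and testosterone mice at the end, and 469 ± 38.6 and 260 ± 47.1 after withdrawal. Its highest testosterone mouse at the end was mouse 3 (273 against 195 and 170), as for Slco1a4, but Gstt3 was chosen for its likeness over these same arrays. Papss2, which makes the sulphate donor of sulphation, read 1163 ± 221 and 618 ± 42.7 at the end. Slco1a4 and Slco1a1 moved in opposite directions with testosterone at both times. Over the 4 groups Slco1a4 was highest in the 2 vehicle groups and lower in the 2 testosterone groups, with no call within either treatment from all 12 mice. Without testosterone mouse 3 of the earlier time the later testosterone mice were higher (0.53 ± 0.14, adjusted p = 0.0321).

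Slco1b2, the uptake carrier of bile acids and many drugs that is largely restricted to hepatocytes, showed small or no differences on its 2 brightest probe sets. On 1449394_at vehicle mice at the end read 1920.0, 2176 and 2112, and testosterone mice 2330.4, 2340.3 and 2476. The testosterone mice lay above all vehicle mice, by 1.07 times between the nearest, but the log2 difference of 0.20 ± 0.07 missed the threshold (adjusted p = 0.0558). It passed without vehicle mouse 2, the mouse with the acute-phase signal (0.24 ± 0.08, adjusted p = 0.0461). After withdrawal the values were 2072, 2038 and 2069.9 in vehicle and 2326, 2119.5 and 2370.2 in testosterone mice (0.14 ± 0.07, adjusted p = 0.275).

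The probe set 1452494_s_at read 1932, 2173 and 2126 in vehicle mice and 1952, 1804 and 2082 in testosterone mice at the end. The groups overlapped and the log2 difference was -0.09 ± 0.08 (adjusted p = 0.431). After withdrawal it read 1881, 1738 and 1687 in vehicle and 1945, 2010.4 and 2184 in testosterone mice (0.21 ± 0.08, adjusted p = 0.154).

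The third Slco1b2 probe set, 1427826_a_at, went another way. It read 812, 863 and 716 in vehicle mice at the end and 261, 266 and 267 in testosterone mice, a log2 change of -1.59 ± 0.23 among all probe sets (adjusted p = 0.000358), or 3.00-fold lower. After withdrawal it read 629, 379 and 362 in vehicle and 359, 464 and 747 in testosterone mice, which overlapped (0.18 ± 0.23, adjusted p = 0.705). The treatment difference of this probe set differed between the times (1.76 ± 0.32, adjusted p = 0.0114). It was lower after withdrawal in vehicle mice (-0.85 ± 0.23, adjusted p = 0.0218) and higher in testosterone mice (0.91 ± 0.23, adjusted p = 0.0196). Each of these 2 calls was lost without any of 4 of its 6 mice (-0.83 to -0.70 and 0.62 to 0.92) and with no filter (adjusted p = 0.125 and 0.128). The vehicle call was lost without mice 1 or 2 of the earlier or mice 2 or 3 of the later time, and the testosterone call without any earlier mouse or without mouse 3 of the later time.

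Over the 4 group means the signal of 1427826_a_at was lower where the 3′ to 5′ ratio of beta-actin was higher. As a share of 1449394_at on the same array it was 42.3%, 39.6% and 33.9% in vehicle mice 1 to 3 at the end, where the actin ratio was 1.44, 1.64 and 1.48. The share was 11.2%, 11.4% and 10.8% in the testosterone mice, where the ratio was 2.03, 2.11 and 2.19. After withdrawal the share was 30.4%, 18.6% and 17.5% in vehicle mice (ratios 1.598, 1.83 and 1.89) and 15.4%, 21.9% and 31.5% in testosterone mice (ratios 1.82, 1.57 and 1.47). In both later groups the mouse with the lowest actin ratio had the highest share. Among vehicle mice at the end, mouse 2 had both the highest actin ratio and the highest signal (863). The 3′ to 5′ ratio of Gapdh averaged 0.763 in vehicle and 0.930 in testosterone mice at the end. After withdrawal it averaged 0.797 and 0.844, the reverse of the order of these 2 groups by beta-actin. With the ratio in the fit the end-of-treatment difference was -0.49 ± 0.33 (adjusted p = 0.652) and the difference between times 0.35 ± 0.43 (adjusted p = 0.989). The change between times was then -0.34 ± 0.21 in vehicle and 0.01 ± 0.29 in testosterone mice, and none of the 4 was called. At the end of treatment the actin ratio did not overlap between the treatments, so that fit cannot tell it from the treatment there. Where along the transcript each probe set lies was not analysed here, and the part of RNA quality in these values was not tested. The remaining 2 probe sets of Slco1b2 were dim on all arrays and not tested (1427825_at, 5.06 to 19.96, and 1452569_at, 2.35 to 9.10).

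**Figure D3:**
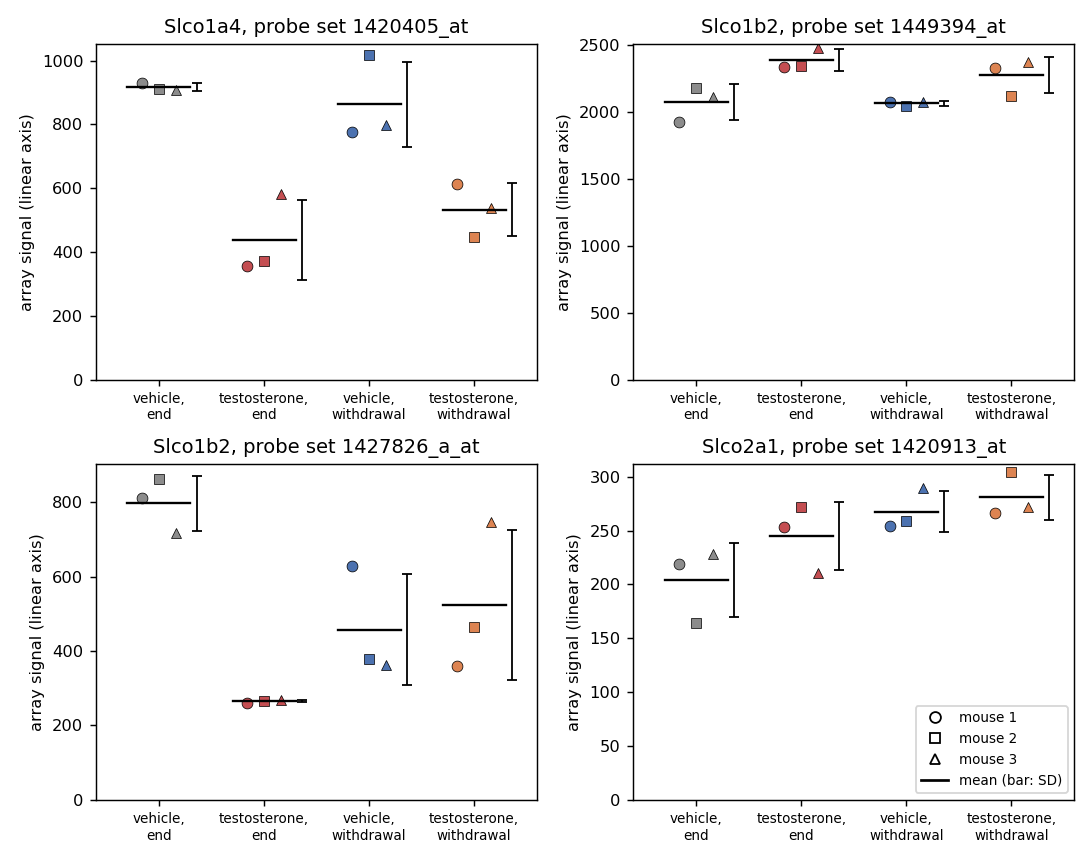
Signal on linear axes from 0 by mouse in the 4 groups for Slco1a4, 2 probe sets of Slco1b2 and Slco2a1; points are mice, lines are group means and bars are the SD of 3 mice. Slco1a4 is lower in both testosterone groups, 1449394_at of Slco1b2 stays between 1920.0 and 2476, and 1427826_a_at is at 261 to 267 in testosterone mice when treatment ended.

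Slco2a1, the prostaglandin carrier, did not pass the test between treatments at either time. Its brightest probe set (1420913_at) read 219, 165 and 228 in vehicle mice and 253, 272 and 210.2 in testosterone mice at the end (0.27 ± 0.13, adjusted p = 0.176). After withdrawal it read 255, 259 and 289.9 in vehicle and 266, 305 and 272 in testosterone mice (0.07 ± 0.13, adjusted p = 0.803). Both pairs of groups overlapped. The probe set 1450032_at read 73.8, 37.5 and 67.3 against 50.4, 43.5 and 27.7 at the end, with the opposite sign (-0.54 ± 0.27, adjusted p = 0.175), and 77.6, 52.2 and 50.7 against 46.1, 61.8 and 61.1 after withdrawal. The remaining probe set, 1420914_at, was dim (9.59 to 22.9) and not tested.

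Vehicle mice had a higher Slco2a1 signal after withdrawal than at the end on 1420913_at, by 1.32-fold (0.41 ± 0.13, adjusted p = 0.0479), with no overlap. The lowest of the earlier mice was mouse 2, the one with the acute-phase signal, and without it the change was 0.26 ± 0.12 and was not called (adjusted p = 0.175). The call was also lost without any of 4 other mice of that comparison, and 1450032_at gave no call (0.05 ± 0.27, adjusted p = 0.926). The summed signal of 18 endothelial markers was 2211 to 2515 in the earlier and 1834 to 2198 in the later vehicle mice, with 4 of 16 tested markers called, all lower (median -0.13), where 17.8% of all genes were called. At the end of treatment that sum was 1893 to 2033 in testosterone mice, and 3 of the 16 (Oit3, Egfl7 and Stab2) were called, all lower than in vehicle mice, where 17.4% of all genes were called.

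**Figure D4:**
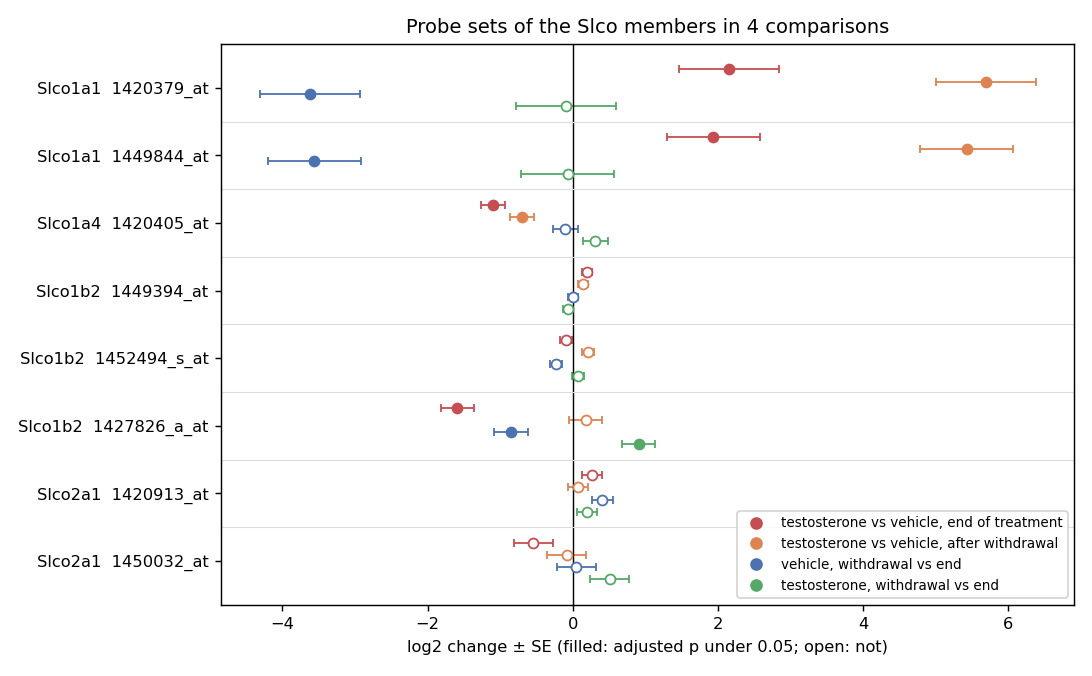
Log2 change ± SE of the 8 tested Slco probe sets in 4 comparisons, from the limma fit over 12108 probe sets; filled points passed an adjusted p of 0.05. Both Slco1a1 probe sets are filled and above 0 for testosterone against vehicle at both times, Slco1a4 is filled and below 0 at both, and of 3 Slco1b2 probe sets only 1427826_a_at has filled points.

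Counted at 1 probe set for each gene, 2 of the 4 tested members were called at the end of treatment, 1 higher (Slco1a1) and 1 lower (Slco1a4), where 17.4% of all genes tested were called. After withdrawal the same 2 members were called, against 6.0% of all genes. No member was called for a difference between the times, against 2.19% of genes. At an unadjusted p under 0.05 in limma 1 of the 4 passed (Slco1a1), beside 1580 of all 7217 genes. Between the vehicle groups 2 were called, Slco1a1 lower and Slco2a1 higher, against 17.8%. Between the testosterone groups 0 of 4 were called, against 10.9%. None of the 4 passed there at an unadjusted p under 0.05, beside 1870 of 7217 genes. The median log2 change of the 4 members was 0.24 at the end and 0.10 after withdrawal, beside 0.04 and -0.04 over all genes. With 4 genes tested such counts describe these members only. The treatment comparisons and the comparisons between times share their vehicle and testosterone mice, so their values are not independent of each other. Counted by probe set, 4 of the 8 tested were called at the end (19.4% of all probe sets), 3 after withdrawal (4.9%), 2 for the difference between times (4.77%), 3 between vehicle groups (16.4%) and 1 between testosterone groups (10.2%). Mice of the 2 treatments did not overlap for 3 of the 4 members at each time (Slco1a1, Slco1a4 and Slco1b2), beside 35.7% of all genes at the end and 25.9% after withdrawal.

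No other Slco gene came into the tests. Of 12 listed, 7 had a probe set (Slco1a5, Slco1a6, Slco1c1, Slco3a1, Slco5a1, Slco6b1 and Slco6c1), and none lay above the array's median on 3 arrays. Those nearest to Slco1a1 in the cluster, Slco1a5 and Slco1a6, read at most 6.82 in any mouse.

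Of 19 other uptake carriers of the sinusoidal membrane listed, 13 were tested. At the end of treatment 0 were higher and 4 lower, beside 17.4% of all genes called, with a median log2 change of -0.27. Slc22a26 and Slc22a27, of the organic anion carrier family, changed most, at 7.32 ± 5.13 against 594 ± 133 and at 5.44 ± 1.23 against 250.1 ± 32.3. The nucleoside carrier Slc29a1 fell by 0.89 (SE 0.14, adjusted p = 0.000628), and Slc10a1, the sodium-driven bile acid carrier, fell by 0.38 (SE 0.08, adjusted p = 0.00524). After withdrawal 2 were higher and 2 lower, beside 6.0% of all genes called, with a median of 0.04. Slc22a26 and Slc22a27 were again lower with testosterone, and the organic anion carrier Slc22a7 (161 ± 19.2 against 83.7 ± 30.1, adjusted p = 0.0178) and Slc22a30 (811 ± 42.6 against 575 ± 123, adjusted p = 0.0260) were higher. Slc22a7 was the only one of the 13 whose treatment difference changed between times (1.43 ± 0.33, adjusted p = 0.0415), and like Slco1a1 it was lower in the later vehicle mice (211 ± 59.6 at the end).

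Among 8 tested pumps of the bile canaliculus, which move conjugates onward into bile, 2 were higher and 3 lower at the end (median -0.16), beside 17.4% of all genes called. Abcg2, which exports sulphate conjugates, read 400.2 ± 28.8 with testosterone against 177 ± 38.4 (1.20 ± 0.14, adjusted p = 4.47e-05), and the conjugate pump Abcc2 rose by less (0.40 ± 0.10, adjusted p = 0.0142). Abcb1a, an exporter of many drugs, read 23.0 ± 2.34 against 68.3 ± 18.1 (-1.54 ± 0.36, adjusted p = 0.0103), and Abcc6 also fell (-0.53 ± 0.14, adjusted p = 0.0202). After withdrawal Abcg2 was still higher (0.79 ± 0.14, adjusted p = 0.00238) and Abcb1a lower (-2.11 ± 0.36, adjusted p = 0.00236), and the other 6 were not called, beside 6.0% of all genes called. Neither of the 2 tested pumps of the sinusoidal membrane was called at either time.

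Of 21 tested regulators known to act on such transporters, 5 were higher and 3 lower at the end, beside 17.4% of all genes called, with a median change of 0.00. Cux2, a female-typical repressor, read 1.23 ± 0.569 against 29.9 ± 8.19, and Nr1i3, which encodes the xenobiotic receptor CAR, read 192 ± 48.4 against 419 ± 35.96 (-1.16 ± 0.17, adjusted p = 0.000401). Foxa1 (1.07 ± 0.15, adjusted p = 0.000208) and Cebpb (0.71 ± 0.12, adjusted p = 0.00114), liver transcription factors, were higher. After withdrawal 1 was higher and 3 lower, beside 6.0% of all genes called, with a median of -0.09. Bcl6, a male-typical repressor that competes with STAT5 for its sites, read 179 ± 43.0 with testosterone against 22.3 ± 5.03 (3.01 ± 0.25, adjusted p = 1.49e-06), whereas at the end it had not differed beyond the spread (58.7 ± 20.5 against 56.9 ± 7.03). Bcl6 was called for the difference between times (3.02 ± 0.35, adjusted p = 0.000477) and, as for Slco1a1, its lowest group was the later vehicle mice. Nr1i3 after withdrawal was not called (-0.53 ± 0.17, adjusted p = 0.0865).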

How the data were processed

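Liver RNA of 12 mice was hybridised to Affymetrix mouse arrays, 3 mice in each of 4 groups taken from the sample titles. The deposited values are MAS5 intensities, 1 linear signal per probe set, made by the authors with GCOS and MAS5 per the submitters' processing notes (versions not given in the sources used here). Each array's 2% trimmed mean lay at 100.049 to 100.055, and no scaling was added. Of 22690 probe sets, 64 controls were set aside. For the fit over genes, 691 with several symbols and 1555 with none were also set aside. Signals under the 25th percentile (4.84) were raised to it, log2 was taken and each gene was represented by its probe set of highest mean. Genes exceeding their array's median in 3 or more arrays were fitted with limma 3.58.1 in R 4.3.3 (4 group means, variance trend, Benjamini-Hochberg over 7217 genes, called at an adjusted p under 0.05), with a second fit over 12108 probe sets. The method was tested on simulated data. Precision is limited by 3 arrays per group. Symbols came from the platform annotation, and promoter windows from RefSeq. The members and all gene lists were chosen with earlier results of these data known. All member probe sets are reported, with at most 4 called genes of each list by size of change, the 5 genes nearest in pattern to members changed at least 2-fold, and 8 sex-typical genes in the vehicle mice whatever they showed. The genes that set single vehicle mice apart were chosen after their values were seen. Alternatives covered floor, scaling, filter, choice of probe set, model, RNA ratio, replicate block and each mouse left out. Leaving out mice outside a comparison was added after seeing the data.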

Additional observations from a re-analysis of the deposited data

Results flagged for a closer look

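Slco1a1 on probe set 1449844_at had a treatment difference that differed between the times by 3.49 ± 0.91 on the log2 scale (adjusted p = 0.0441, limma over all probe sets), with testosterone mice at like levels at both times and vehicle mice at 139 ± 33.8 and 22.9 ± 32.2 (SD, n = 3 each). The other probe set, 1420379_at, gave 3.54 and missed the threshold in that same fit (adjusted p = 0.0532) and in the fit over genes (adjusted p = 0.0659). With 1 mouse left out, 1449844_at gave 2.86 to 4.68 and kept the call in 2 of 12 fits, without vehicle mouse 1 and without testosterone mouse 1 of the withdrawal time. Slco1b2 on probe set 1427826_a_at had a treatment difference that differed between the times by 1.76 ± 0.32 (adjusted p = 0.0114), which stayed called in all 12 fits with 1 mouse left out (1.47 to 2.01). The other tested Slco1b2 probe sets gave -0.07 and 0.30 and were not called. With the beta-actin ratio in the fit these 2 called differences were 0.58 and 0.35, and neither was called. Neither passed with no filter (adjusted p = 0.1985 and 0.103) or with 0.01 as the threshold. With no variance trend or the replicate block 1449844_at was not called (adjusted p = 0.0821 and 0.0638), while 1427826_a_at was (0.0354 and 0.0305).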

How the results depend on the processing

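Across 16 alternative settings and 12 fits with 1 mouse left out, no called member changed sign. Slco1a1 after withdrawal stayed called throughout (4.70 to 6.35 and 4.64 to 6.87), as did Slco1a4 at the end (-1.55 to -1.07 and -1.33 to -0.98). The Slco2a1 call between vehicle groups was lost in 10 of 16 settings and 10 of 12 fits with 1 mouse left out. The Slco1a1 call at the end was lost at an unchanged 2.15 with an adjusted p of 0.01 as the threshold, no filter, no variance trend or the replicate block, at 2.05 with the mean of its probe sets and at 4.09 with the actin ratio. It ranged from 1.96 to 2.31 with 1 mouse left out, called in 2 of the 12 fits. Under the stricter filter Slco1a1 was not tested. Its difference between times became called at 2.62 with log2(signal + 16), 3.11 with a floor at the 40th percentile and 4.11 with array weights, and ranged from 2.48 to 4.71 with 1 mouse left out. Slco1a4 after withdrawal was lost at an unchanged -0.70 with the threshold of 0.01, a fold of at least 2, no filter or no variance trend, and at -0.57 with the actin ratio, and ranged from -0.81 to -0.58 with 1 mouse left out. Slco1b2 at the end became called at 0.24 under quantile normalization and 0.22 with array weights, ranged from 0.15 to 0.24 with 1 mouse left out, and was -0.34 and not called with the mean of its probe sets. The cause of these changes was not tested.

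The count of members called at the end was 1 in place of 2 with the threshold of 0.01, no filter, the stricter filter, the mean of probe sets, no variance trend, the actin ratio or the replicate block, 3 under quantile normalization or array weights, where Slco1b2 was added, and 1 to 2 with 1 mouse left out. After withdrawal it was 1 in place of 2 with the threshold of 0.01, a fold of at least 2, no filter, the stricter filter, no variance trend or the actin ratio, and 1 to 2 with 1 mouse left out. The difference between times had 1 member in place of 0 with log2(signal + 16), the 40th percentile floor or array weights, and 0 to 1 with 1 mouse left out. Between vehicle groups 1 remained in place of 2 with the threshold of 0.01, a fold of at least 2, median centring, no filter, the stricter filter, the mean of probe sets, every probe set tested, no variance trend, only the groups compared or the replicate block, 0 with the actin ratio, and 1 to 2 with 1 mouse left out. Between testosterone groups it was 0, and 0 to 1 with 1 mouse left out (Slco1a4, without testosterone mouse 3 at the end).

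Over all genes the counts were 1258 at the end (789 to 1360 with 1 mouse left out, 78 with the actin ratio to 2344 over every probe set), 433 after withdrawal (236 to 634, and 124 with a fold of at least 2 to 866 with array weights) and 158 for the difference (26 to 542, and 1 with the actin ratio to 693 with array weights). They were 1288 between vehicle groups (584 to 1386, and 205 to 1991) and 785 between testosterone groups (454 to 888, and 110 to 1230). Replicate numbers are shared between groups, but same-numbered mice did not deviate together (correlations -0.194 to 0.00565 over 18 pairs), so the number is not a pairing. With the replicate block Slco1a1 at the end kept 2.15 (adjusted p = 0.0515). Signals of Slco1a1 near the floor in the later vehicle mice limit how far its level there can be measured.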
